A study of Mus musculus with 64 samples.

Results

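The genes of the cytoplasmic ribosomal proteins were followed through the formation of the mouse inner ear. Members were taken by symbol, as Rpl or Rps with a number and at most 1 further letter, or Rplp0, Rplp1, Rplp2 or Rpsa, and needed a probe set annotated to that gene alone. The rule found 45 genes (24 of the large and 21 of the small subunit) among the 12393 genes with such a probe set, and 44 of them were among the 9352 genes that passed the filter on low signals. A further 27 symbols that fit the pattern, among them Rplp1, Rpl3, Rpl5 and Rpl23, occur only on probe sets shared with other genes and are not analysed here.

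RNA came from unmanipulated CBA/J embryos and was hybridised to 64 single-colour Affymetrix arrays, 2 for each of 32 groups, each array holding a pool of dissected tissues from separate litters. The 29 inner ear groups were whole otic epithelium at E9 (placode), E9.5 and E10, cochlear and vestibular primordia at each stage from E10.5 to E12, and cochlea, saccule and utricle (with the ampullae) at each stage from E12.5 to E15. The 3 remaining groups were non-inner ear tissue from next to the ear, 1 at E9, 1 pooled over E9.5 to E10.5 and 1 pooled over E11 to E15. Tissue was loosened in dispase for 8 to 10 minutes up to E10.5 and for 20 to 25 minutes from E11, so stage and digestion time change together between these stages. A pool mixes all cell types of a dissected piece, so that fewer cells of a type and less RNA per cell cannot be told apart.

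Each ribosome joins a large and a small subunit, built from ribosomal RNA and a nearly fixed set of proteins in about equal numbers. Their messenger RNAs are among the most abundant in growing cells, and many begin with a 5′ terminal oligopyrimidine (TOP) tract, a cytosine followed by pyrimidines, through which mTOR signalling governs their translation. Several members also act outside the ribosome or have tissue-restricted paralogs, and losing 1 copy of a member can give tissue-selective defects, such as Diamond-Blackfan anaemia or the skeletal and middle ear changes of the Tail-short mouse, a mutant of Rpl38.

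Start-site sequence was available in RefSeq (GRCm38.p6) for 39 of the 45 members. The lines below give the 30 bases from 10 before to 20 after the annotated start. They were chosen to show windows with and without a TOP tract among members whose array signals are described further on. Starts were not measured in these tissues, so a line without a marked tract does not show that the message lacks one. Capitals mark a TOP tract, here at least 5 pyrimidines read from a C that lies within 5 bases of the annotated start. The run of pyrimidines may reach further upstream of that C, as it does in every marked line below.
Rpl38 (chr11:114668570-114668599, plus strand): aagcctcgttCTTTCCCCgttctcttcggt
Rpl14 (chr9:120571507-120571536, plus strand): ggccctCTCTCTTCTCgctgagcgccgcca
Rplp2 (chr7:141447641-141447670, plus strand): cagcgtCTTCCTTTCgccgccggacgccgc
Rps9 (chr7:3704031-3704060, plus strand): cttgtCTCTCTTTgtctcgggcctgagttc
Rpl12 (chr2:32961702-32961731, plus strand): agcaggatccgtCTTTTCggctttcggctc
Rpl37a (chr1:72711250-72711279, plus strand): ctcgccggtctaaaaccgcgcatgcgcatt
Rpl11 (chr4:136053374-136053403, minus strand): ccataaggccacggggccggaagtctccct

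By this definition 19 of the 39 members (48.7%) held a tract, against 21.2% of 27025 genes with a start window, and 8 members (20.5%) had a C at the annotated start that opens at least 5 pyrimidines read from there, whether or not the run reaches further upstream, against 3.01% of all genes. Within the 300 bases from 250 before to 50 after the start, read on both strands, CTTCCG was found in 71.8% of the members and in 18.8% of all genes, GGGCGG in 53.8% and 38.2%, AAGATGG in 15.4% and 7.28%, TATAAA in 12.8% and 15.7%, and CACGTG in 10.3% and 8.09%. Among mitochondrial ribosomal protein genes, which encode the separate ribosome of that organelle, 17 of 69 (24.6%) had a tract near the start and 56.5% held CTTCCG. These are matches of letters, not binding sites, and tracts of members with opposite signal changes stand side by side above, since Rpl38 and Rpl12 both hold one.

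Several features of the arrays bear on every member. Deposited signals differed in scale between tissues: maxima lay at 9660 to 10969 on the cochlear arrays of E10.5 to E12 and at 11117 to 14691 on all others. Differences are therefore given after quantile normalization, and beside them where scaling by a trimmed mean or the values as deposited changes a direction. The probe sets of 13 members were on average among the brightest 226 of 22626, and across the 32 groups these 13 had a median range of 0.82 on the log2 scale, against 1.53 for the other 31. Rps10 ranked between 1 and 6 on every array and its group means spanned only 0.11. The E14 arrays of all 3 late organs stood apart in the members and results are also given without them. The dissection followed its labels: of 15 otic epithelium markers measured, 11 were higher and 2 lower in the inner ear than in surrounding tissue at E11 to E15, and their summed signal was 12177 to 34926 on the 48 inner ear arrays against 5044 to 6370 on the 2 surrounding arrays.

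Ribosomal protein transcripts were strong in every tissue and stage. Of the 44 members, 41 lay above the array's median signal on all 64 arrays. The exceptions that passed the filter were Rps25, whose protein supports initiation from internal entry sites, Rps27, and Rps4l, a paralog of Rps4x. Rps25 gave signals of 34.3 to 197 (median 78.5), Rps27 of 51.6 to 171 (median 123) and Rps4l of 10.0 to 198 (median 101). These medians lie near the array median of 87.5, so changes of these 3 given further on rest on low signals. The member that did not pass was Rpl3l, the paralog of Rpl3 made in heart and skeletal muscle: its signal ran from 10.0 to 36.3 with a median of 17.6, it was at the floor of 10 on 15 arrays, and it never reached the array median of 87.5. The median member was highest in the E9 placode, at 12.35 and 12.40 as log2(signal + 16), and lowest on 1 utricle array of E14, at 10.87.

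**Figure D1:**
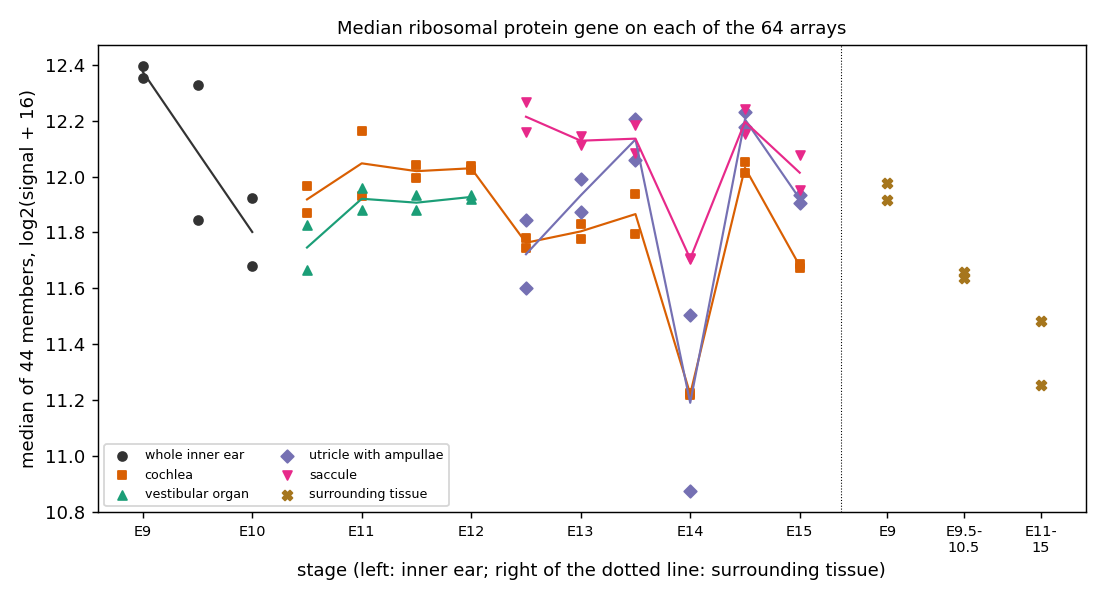
Median of the 44 members on each array, as log2(signal + 16) after quantile normalization, against stage for the 5 inner ear tissues (left; lines join the means of 2 arrays) and for surrounding tissue (right of the dotted line). The placode is highest at 12.35 and 12.40, the E14 arrays of cochlea (11.22 and 11.23), utricle (10.87 and 11.51) and saccule (both 11.71) lie below those of the stages on either side, and surrounding tissue goes from 11.92 and 11.98 at E9 to 11.48 and 11.25 at E11 to E15.

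At E11 to E15 most of the members that differed were higher in inner ear epithelium than in the tissue around it. Of 44 members, 23 were higher and 8 lower by limma at an adjusted p below 0.05, where 29% of all genes were higher and 26.7% lower. With a difference of at least 1 log2, 11 members were higher and none lower, against 8.47% and 7.14% of all genes. Both subunits took part, with 14 higher and 4 lower of 23 large-subunit members and 9 higher and 4 lower of 21 small-subunit members. The median member differed by 0.28, the median gene by -0.01. Of the members called, 19 higher and 6 lower were called the same way under all 3 scalings (27.2% and 18.5% of all genes). The split was 22 higher and 8 lower as deposited, where 3374 genes were higher and 1753 lower. With the trimmed mean it was 19 and 12, where 2642 and 2583 genes were.

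Rpl27, a large-subunit protein whose human counterpart is among the Diamond-Blackfan anaemia genes, gave signals of 1385 to 7595 (median 4884) on the 48 inner ear arrays and of 1753 and 1588 on the surrounding arrays. The lowest inner ear value was that of the first utricle array of E14, and the groups overlapped only through this array. Rpl27 was 1.54 ± 0.15 (SE) higher on the log2 scale (limma adjusted p = 2.6e-11). Rps15, which sits in the head of the small subunit near the decoding site, ran from 136 to 2782 (median 1257) against 425 and 390, with a difference of 1.50 ± 0.32 (limma adjusted p = 1.1e-04). Rpl37a, a zinc-binding protein of the large subunit, ran from 1992 to 10383 (median 8719) against 3049 and 3075. Here too only the first utricle array of E14 reached down to the surrounding values, and the difference was 1.40 ± 0.16 (limma adjusted p = 2.9e-09).

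Other members higher by at least 1 log2 were Rpl11, which with Rpl5 and 5S RNA can bind MDM2 and stabilise p53 (1.17 ± 0.15), Rpl41, the shortest ribosomal protein (1.17 ± 0.13), Rps9, at the mRNA entry channel (1.15 ± 0.18), Rpl39, which lines the exit tunnel (1.10 ± 0.13), Rpl7 (1.08 ± 0.11), Rpl8, next to the peptidyl transferase centre (1.07 ± 0.10), Rpl38 (1.06 ± 0.14) and Rpl14 (1.01 ± 0.16). The measured stalk proteins, which recruit elongation factors, were both higher, Rplp0 by 0.90 ± 0.19 and Rplp2 by 0.87 ± 0.20. Of 11 measured members whose human counterparts are mutated in Diamond-Blackfan anaemia, 7 were higher and none lower, where 52.3% of all 44 members were higher. Rps19, the gene most often mutated in it, differed by 0.25 and was not called.

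The members that were lower in the epithelium included Rpl12, at the base of the stalk. Its signal was 2635 and 2884 in surrounding tissue and 794 to 2881 (median 1603) in the inner ear, a difference of -0.83 ± 0.11 (limma adjusted p = 5.3e-08); without E14, every inner ear array was below both surrounding arrays. Rpl39l, the testis-enriched paralog of Rpl39, had 385 and 475 in surrounding tissue and 130 to 334 (median 224) in the inner ear, so that no array overlapped, and differed by -0.89 ± 0.14 (limma adjusted p = 1.0e-06). Rpsa, also known as a laminin receptor, was lower by -0.42 ± 0.10, Rps20 by -0.51 ± 0.14 and Rps27l, a p53 target, by -0.58 ± 0.22. Rpl27a carried the largest negative value, -0.94 ± 0.40, but its 2 surrounding arrays read 631 and 1384, and it was not called as deposited or with the trimmed mean (limma adjusted p = 0.042 after quantile normalization). Rpl22 was lower by -0.29 ± 0.11 on the probe set that represents it and higher by 0.97 on its other probe set, so its direction depends on the probe; Rps18, higher by 0.16, also had a second probe set called the opposite way.

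**Figure D2:**
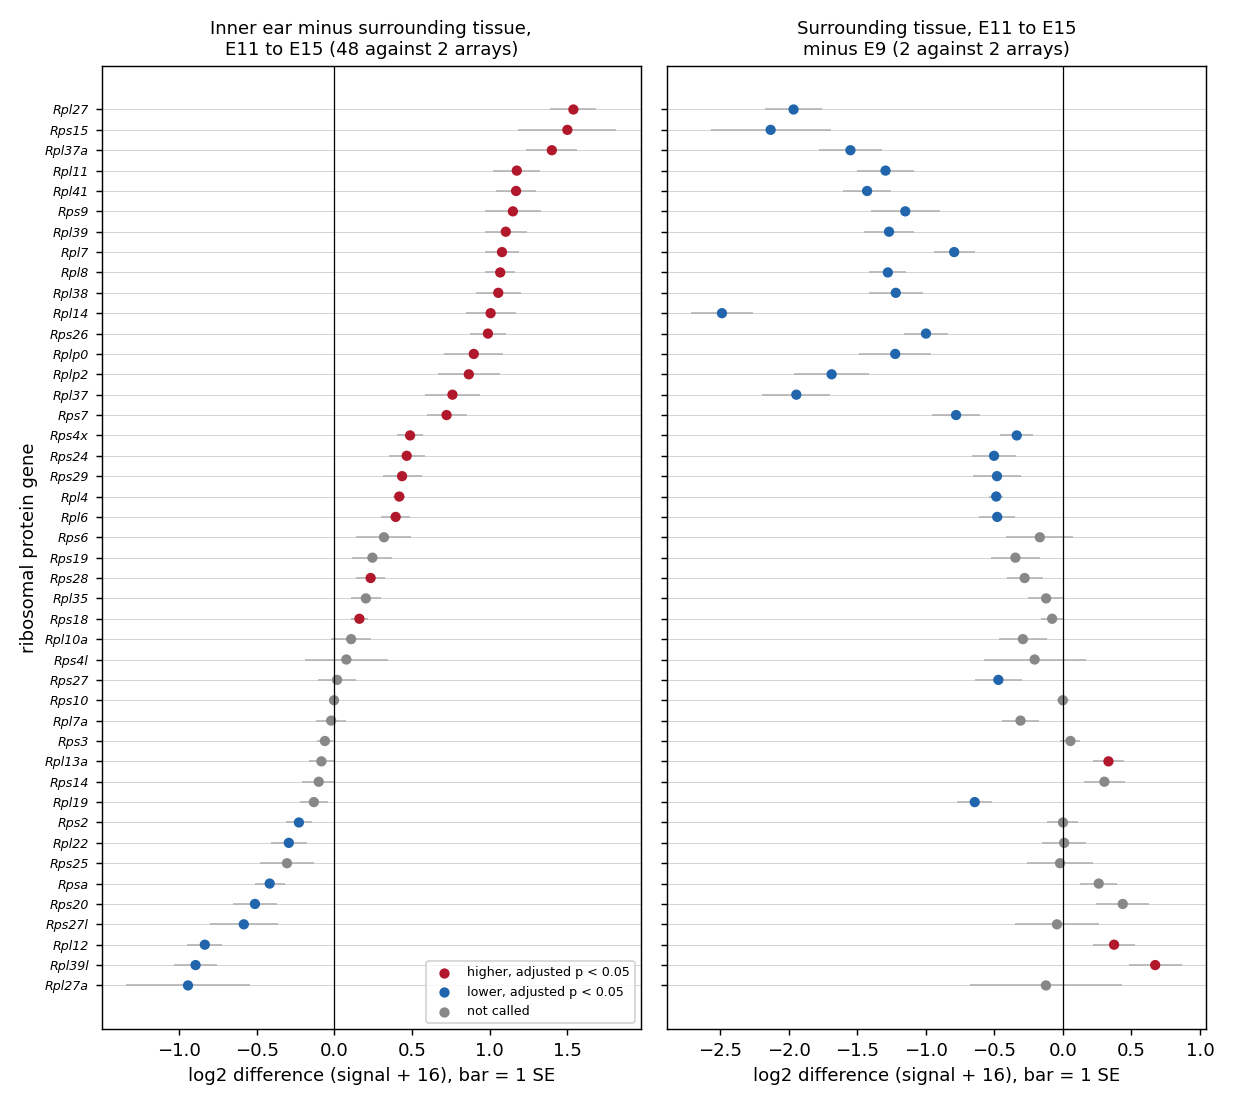
Differences of the 44 members, as log2(signal + 16) with bars of 1 SE, between inner ear and surrounding tissue at E11 to E15 (left) and within surrounding tissue between E11 to E15 and E9 (right), both ordered by the left panel. Rpl27, Rps15 and Rpl37a top the left panel at 1.54, 1.50 and 1.40, and Rpl14 reaches -2.49 on the right; both panels use the same 2 late surrounding arrays.

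Because only 2 arrays hold late surrounding tissue, the array values show how far the groups part. Over all 48 inner ear arrays, Rpl4, which lines the exit tunnel, and Rpl8 were above both surrounding arrays throughout and Rpl39l below, 2 members above where 7.68% of all genes were and 1 below where 7.07% were. Without the 6 arrays of E14, 17 members were above (9.97% of all genes) and 2 below (8.69%), and the count called was 25 higher and 8 lower. Markers of other cells moved with the same contrast. Of 16 mesenchyme markers 15 were lower in the inner ear and none higher, with a summed signal of 2107 to 9434 against 18182 to 19748 in surrounding tissue; of 16 neuron markers 13 were lower and 1 higher (2404 to 9043 against 22217 to 23168); of 10 endothelial and macrophage markers 9 were lower (571 to 2199 against 6830 to 6866); and of 11 red cell markers 6 were lower and 2 higher (1770 to 12329 against 14006 to 17013). No marker of these 4 lists was at the floor on all arrays of either group. Their part in the members' difference was not tested.

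In the earlier windows fewer members were called, while the median member differed by 0.22 at E9 and 0.26 at E9.5 to E10.5; the windows differ in their number of arrays, and differences between them were not tested. At E9 the placode had 6 members higher and 1 lower than surrounding tissue, where 11% of all genes were higher and 11.9% lower. Rps25 was highest above its surroundings, with 197 and 185 in the placode against 100 and 86.7 (0.92 ± 0.24, limma adjusted p = 0.0052). Its surrounding values lay near the array median of 87.5. Rps20 followed at 0.75 ± 0.20 and Rpl7 at 0.66 ± 0.15, and these 3 were called under each scaling. The split at E9 was 9 higher and none lower as deposited, where 3190 of 9352 genes were higher and 378 lower. With the trimmed mean it turned to 5 higher and 7 lower with a median of -0.04, where 1295 genes were higher and 1105 lower. No direction can therefore be given for the members as a group. The split was 17 and 1 with array weights and 18 and none with only these groups in the fit. Without either placode array or without the first surrounding array 4 members were called instead of 7. Rpl39l was lower, with 142 and 176 against 291 and 236 (-0.67 ± 0.19, limma adjusted p = 0.010). At E9.5 to E10.5, 16 members were higher and 6 lower (16.6% and 17.4% of all genes), 1 of them by at least 1 log2 (3.72%). This split moved with the scaling. It was 24 higher and 2 lower as deposited, where 4178 genes were higher and 718 lower and the median of all genes was itself at 0.33. With the trimmed mean it was 8 and 12, where 1440 and 1726 genes were. Rpl27, at 4190 to 7438 on the 8 inner ear arrays and 3393 and 3450 in surrounding tissue, was higher by 0.76 ± 0.16, and Rpl7, at 3204 to 5628 against 2260 and 2268, by 0.81 ± 0.12. Neither overlapped. Rpl27a was higher by 1.23 ± 0.44 here, the opposite of its sign at E11 to E15. Rps6, the target of S6 kinase, was lower by -0.71 ± 0.20 and Rpl13a, also a regulator of inflammatory transcripts, by -0.33 ± 0.09. Of 22 members called, 7 remained in number without the first surrounding array of E9.5 to E10.5 and 4 without the second.

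Markers of most other cell types were lower in the ear in these windows too, and their part was not tested. At E9 this held for 7 of 16 mesenchyme markers (summed signal 1433 to 2120 in the placode against 4093 to 4346), 5 of 16 neuron markers (1720 to 1826 against 4141 to 4385) and 7 of 10 endothelial and macrophage markers (683 to 926 against 1701 to 1880), with none higher. The summed red cell signal at E9 was not lower, at 7347 to 8183 in the placode against 5985 to 8764 in surrounding tissue. The mesenchyme gene Postn was at the floor in both tissues at E9, Col1a1 in the placode and Dcn in surrounding tissue. At E9.5 to E10.5, 11 of 16 mesenchyme markers were lower in the ear (1044 to 2250 against 5508 to 6115). Of 16 neuron markers 13 were lower and 1 higher (1918 to 5423 against 26681 to 28443). Also lower were 8 of 10 endothelial and macrophage markers (637 to 1056 against 2962 to 3231) and 6 of 11 red cell markers (3922 to 8147 against 13055 to 14264).

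Within surrounding tissue most members that changed fell. From E9 to the pool of E11 to E15, 23 members fell and 3 rose, where 24.1% of all genes fell and 22.8% rose, and 13 members fell by at least 1 log2, against 9.51% of genes. Of the large-subunit members 15 fell and 3 rose, and of the small-subunit members 8 fell and none rose. Under all 3 scalings 22 members fell and 1, Rpl39l, rose. These comparisons use the same late surrounding arrays as the inner ear comparison at E11 to E15 and the same E9 arrays as the placode comparison, so their values are given side by side and not as separate support.

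Rpl14 showed the largest fall, from 1200 and 1095 at E9 through 542 and 434 at E9.5 to E10.5 to 203 and 181 at E11 to E15. The 3 pairs of arrays did not overlap, and the change was -2.49 ± 0.22 (limma adjusted p = 9.4e-12). Rps15 went from 1661 and 2034 through 1020 and 979 to 425 and 390 (-2.13 ± 0.44, limma adjusted p = 1.1e-04). Rpl27 went from 6749 and 6373 through 3393 and 3450 to 1753 and 1588 (-1.96 ± 0.21, limma adjusted p = 4.1e-10). Rpl37 fell by 1.94 ± 0.25 and Rplp2 by 1.69 ± 0.28 on the log2 scale. Each of these stepped down at both later ages. Rpl39l went the other way, from 291 and 236 through 320 and 285 to 385 and 475 (0.67 ± 0.19, limma adjusted p = 0.0040), and Rpl12 rose by 0.37 ± 0.15. Rpl13a rose by 0.33 on its main probe set and fell by 1.08 on another of its 4, so its direction is not settled.

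The same 2 ages differed in cell markers: the summed mesenchyme signal was 4093 to 4346 at E9 and 18182 to 19748 at E11 to E15, and the neuron signal 4141 to 4385 and 22217 to 23168. At E9 the mesenchyme genes Dcn and Postn were at the floor. Of 23 proliferation markers 12 fell and 1 rose, with sums of 36031 to 36694 and then 21038 to 24262. Whether these take part in the members' fall was not tested. The late pool also joins 9 stages, so a change between its stages cannot be seen.

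**Figure D3:**
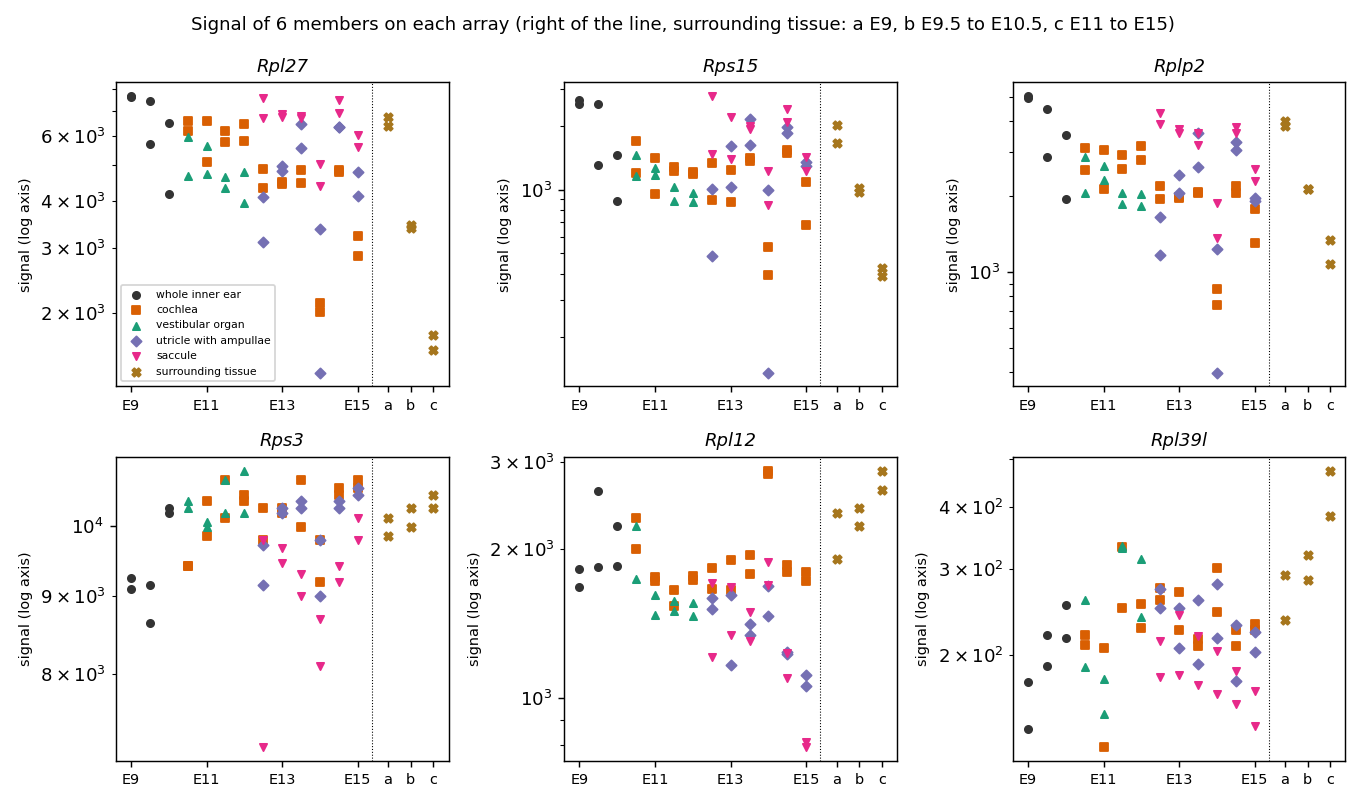
Signal of Rpl27, Rps15, Rplp2, Rps3, Rpl12 and Rpl39l on each array (log axis, quantile normalized) against stage, with surrounding tissue to the right of the dotted line. Rpl27 and Rps15 step down in surrounding tissue, Rps3 stays between 7172 and 10869 on all arrays, and Rpl12 and Rpl39l are highest or near it in late surrounding tissue at 2635 and 2884 and at 385 and 475.

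Between the placode at E9 and the vesicle at E10, 20 members fell and 1 rose, where 10.1% of all genes fell and 13.3% rose, and 3 fell by at least 1 log2 (1.56%). Under all 3 scalings 17 fell and none rose (8.74% and 12.2% of all genes). The members with the largest falls were Rps4l (-1.27 ± 0.37, limma adjusted p = 0.012), Rpl37 (-1.22 ± 0.25, limma adjusted p = 3.9e-04) and Rps15 (-1.18 ± 0.44, limma adjusted p = 0.045). Rps4l had low signals, with a median of 101 over all arrays. Rpl37 read 1175 and 1237 at E9, 533 and 776 at E9.5 and 648 and 397 at E10. Rps15 read 2550 and 2653, then 1317 and 2550, then 1457 and 884, with replicates at E9.5 far apart. Both stalk proteins fell, Rplp0 by 0.84 ± 0.26 and Rplp2 by 0.92 ± 0.28. Rpl39l rose from 142 and 176 to 217 and 253 (0.52 ± 0.19, limma adjusted p = 0.045). Of 16 neuron markers 5 rose and none fell, their sum going from 1720 to 1826 at E9 to 3139 to 5423 at E10, and of 15 otic markers 7 rose and none fell (3236 to 3399, then 7929 to 7951); their part was not tested. Replicates were uneven here: the median member was 11.85 and 12.33 on the E9.5 arrays and 11.92 and 11.68 on the E10 arrays. Instead of 21 members, 8 were called without the first E9 array, 7 without the second and 3 without the second E10 array, and 4 with only these 2 groups in the fit.

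In the cochlea the median member stood at 11.92 at E10.5 and 12.03 at E12, then at 11.76 at E12.5, 11.87 at E13.5, 11.22 at E14, 12.03 at E14.5 and 11.68 at E15, so it did not fall steadily. The fitted trend from E10.5 to E15, given as the change over the whole span, was negative for 21 members and positive for 5 (25.5% and 30.5% of all genes), with 3 falling by at least 1 log2 (6.89%) and a median of -0.26 against 0.06 for all genes. As deposited, where the median gene rose by 0.24, the split was 10 and 10, and with the trimmed mean 13 fell and 10 rose; 10 fell and 5 rose under all 3. Rpl27 read 6560 and 6194 at E10.5, 5803 and 6461 at E12 and 3236 and 2858 at E15, with a trend of -1.10 ± 0.14 (limma adjusted p = 3.0e-08). Rps4l fell by 1.30 ± 0.26, Rplp2 by 1.10 ± 0.19, Rps9 by 0.93 ± 0.18 and Rpl8 by 0.72 ± 0.09. Rps6 rose by 0.69 ± 0.17, from 572 and 560 at E10.5 to 1127 and 944 at E15, and Rps18 and Rps20 rose by 0.25 and 0.37. Rpl13a rose by 0.37 on its main probe set and another of its probe sets was called the opposite way. Without the E14 arrays 17 members fell and 8 rose. Over the same stages 22 of 23 proliferation markers fell, their sum going from 29236 to 35956 at E10.5 to 7626 to 8983 at E15, and the mesenchyme sum went from 1097 to 2250 up to 8516 to 9434; their part was not tested.

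Within shorter spans few members changed. In the cochlea from E10.5 to E12, 5 rose and 2 fell (14.9% and 11% of all genes), both by at least 1 log2 (3.15%), and in the vestibular primordium 2 rose and 3 fell (9.11% and 7.38%), 1 by at least 1 log2 (1.79%). Rpl14 had a negative trend in both, by 1.22 ± 0.21 in the cochlea and by 1.36 ± 0.21 in the vestibular primordium. It did not fall steadily, since it was lowest at E11.5 in both. In the cochlea it read 749 and 802 at E10.5, 184 and 246 at E11.5 and 378 and 408 at E12. In the vestibular primordium it read 527 and 742, then 135 and 149, then 312 and 309. In the cochlea Rpl27a fell by 1.51 ± 0.52, from 863 and 1908 to 324 and 529, with replicates far apart at E10.5. From E12.5 to E15, 6 members were called in the cochlea, 3 rising and 3 falling, where 25.1% of all genes were called in either direction; 1 rose and 1 fell in the utricle (17% and 15%), and none rose and 8 fell in the saccule (14.8% and 15.1%). The 2 utricle members were Rpl19, which rose by 0.49 ± 0.11, and Rpl12, which fell by 0.40 ± 0.13. In the saccule Rpl37 fell by 0.82 ± 0.21, Rps20 by 0.71 ± 0.16, Rpl12 by 0.69 ± 0.13 and Rplp2 by 0.68 ± 0.23. Without the E14 arrays 14 members rose and 1 fell in the utricle, and in the saccule 3 rose and 8 fell.

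At E14 most members read lower in all 3 late organs than at the stages on either side. Both E14 arrays lay below all 4 arrays of E13.5 and E14.5 for 35 of 44 members in the cochlea, 33 in the utricle and 31 in the saccule, which is 79.5%, 75% and 70.5% of members, where 21.6%, 20.7% and 16% of all genes did so. The median member was lower by 0.69, 0.82 and 0.41 on the log2 scale, while the median gene moved by 0.02, 0.06 and 0.00. In all 3 organs together the drop held for 30 members and for 784 of 9352 genes (8.38%). As deposited, 33, 36 and 32 members lay below, and with the trimmed mean 32, 28 and 32. At E11, by the same measure, 5 members in the cochlea and 6 in the vestibular primordium lay below E10.5 and E11.5 (21.5% and 22.9% of all genes).

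Rps15 was the lowest member against its neighbours in cochlea and utricle, with 393 and 537 in the cochlea at E14, 136 and 997 in the utricle and 843 and 1228 in the saccule, or -1.63, -2.29 and -1.04 against the neighbouring stages. Rplp2 stood at -1.38, -2.12 and -1.13, the lowest member in the saccule. In the cochlea it read 2077 and 2063 at E13.5, 740 and 858 at E14 and 2193 and 2070 at E14.5. The 2 utricle arrays of E14 differed widely, with medians over the members of 10.87 and 11.51. Rpl12 went up instead, in the cochlea to 2840 and 2881 against 1782 and 1942 at E13.5 and 1852 and 1797 at E14.5, a difference of 0.63. Of the mitochondrial ribosomal protein genes 46, 48 and 37 of 74 lay below in cochlea, utricle and saccule, and 12, 11 and 9 of 21 translation genes whose messages carry a TOP tract. Of 15 otic markers 1, 2 and 3 lay below. The labels name no batch for E14, and whether the drop belongs to the stage or to the arrays was not tested.

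**Figure D4:**
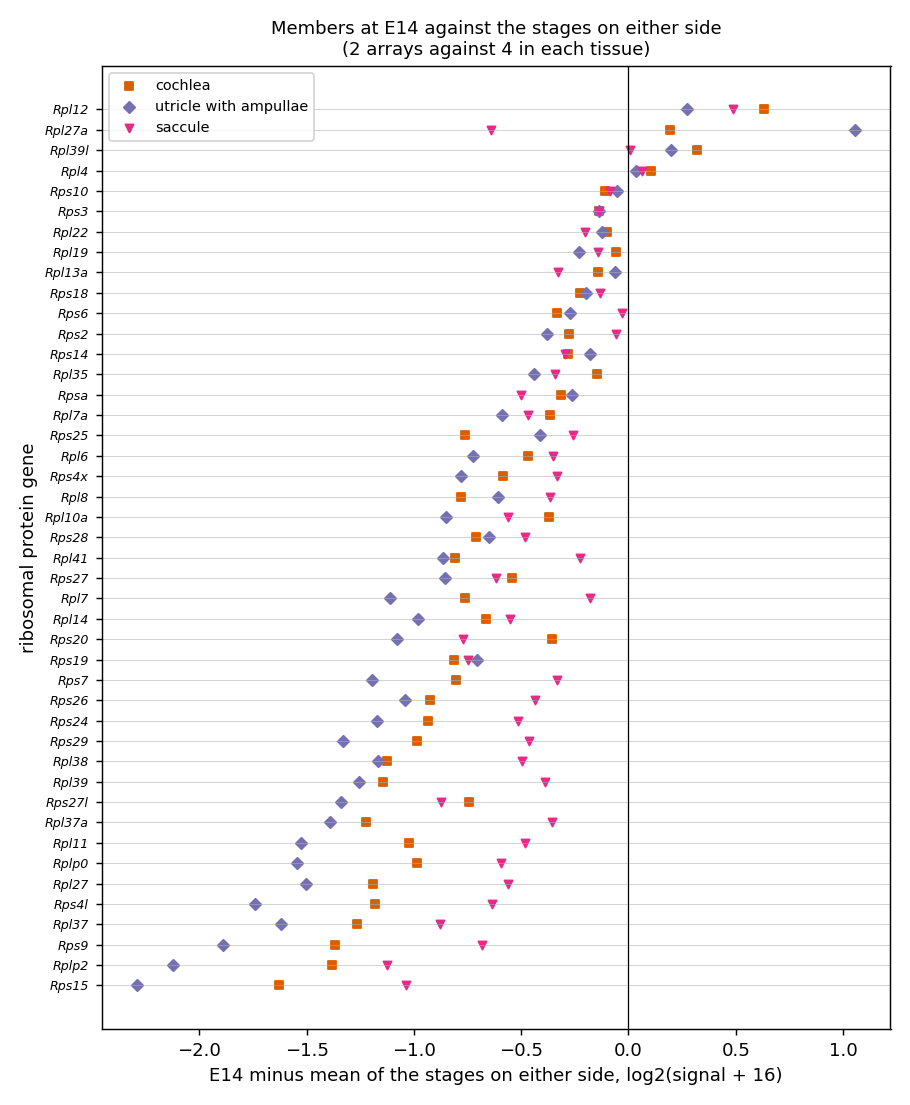
Difference of each of the 44 members between E14 and its neighbouring stages (E13.5 with E14.5), as log2(signal + 16), in cochlea, utricle and saccule, ordered by the mean of the 3. Rps15 lies lowest by the mean of the 3, at -1.63, -2.29 and -1.04, with Rplp2 lower in the saccule at -1.13, most members are below 0 in all 3 organs, and Rpl12 is above 0 in each.

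After quantile normalization most members that differed between the late organs were higher in the saccule, but as deposited this direction turned against the utricle and the split against the cochlea was nearly even. Against the cochlea over E12.5 to E15, 26 members were higher in the saccule and 9 higher in the cochlea, where 26.1% and 26.6% of all genes were. Rplp2 read 740 to 2206 (median 1985) in the cochlea and 1370 to 4285 (median 3569) in the saccule, a difference of -0.83 ± 0.11 for cochlea minus saccule (limma adjusted p = 8.0e-08). Rpl27 read 2011 to 4901 (median 4465) and 4409 to 7595 (median 6725), a difference of -0.74 ± 0.08 (limma adjusted p = 1.7e-09). Over all stages the arrays of both members overlapped, since E14 saccule arrays lay in the range of other cochlear stages. Rps4l was lower in the cochlea by 0.83 ± 0.15 on the log2 scale, Rps15 by 0.73 ± 0.18 and Rpl39 by 0.72 ± 0.08. The members higher in the cochlea were led by Rps6, with 637 to 1127 (median 887) against 353 to 904 (median 487), a difference of 0.76 ± 0.10, then Rpl12 at 0.56 ± 0.06, Rps14, a small-subunit protein of the platform, at 0.42 ± 0.06 and Rpl22 at 0.36 ± 0.06.

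The split depended on scale. It was 13 higher and 15 lower in the cochlea as deposited, where 2139 of 9352 genes were higher and 2773 lower. With the trimmed mean it was 13 and 16, where 2151 and 2828 genes were. Under all 3 scalings 9 members were higher and 15 lower (21% and 25% of all genes). Without E14 the split was 9 and 27. Rps24 was called in opposite directions by 2 of its probe sets, as was Rpl13a. The organs also differed in other markers, with a summed neuron signal of 2404 to 4021 in the cochlea and 4205 to 8252 in the saccule, and a red cell signal of 2026 to 4971 and 2853 to 12329; their part was not tested.

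**Figure D5:**
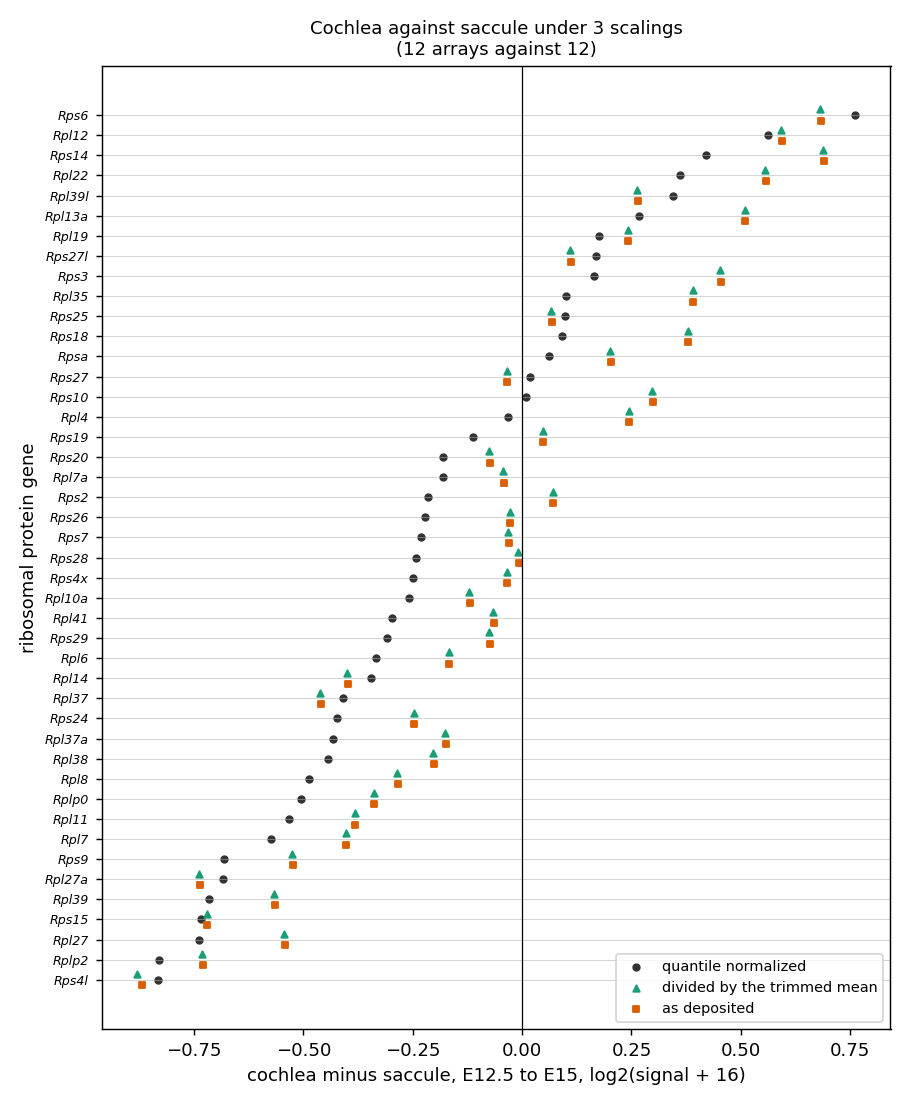
Cochlea minus saccule over E12.5 to E15 for each of the 44 members, as log2(signal + 16), after quantile normalization, after division by the trimmed mean and as deposited. The median member lies at -0.24 after quantile normalization and at -0.04 both as deposited and with the trimmed mean. Rps4l is lowest and Rps6, Rpl12 and Rps14 are highest under all 3.

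Against the utricle the saccule had 24 members higher and 7 lower (21.9% and 20.7% of all genes). This split turned to 7 higher and 14 lower as deposited, where 1646 of 9352 genes were higher and 2296 lower. With the trimmed mean it was 13 and 11, where 2549 and 1639 genes were. Called under all 3 scalings were 7 higher and 7 lower. Rplp2 was higher by 0.68 ± 0.11 and Rpl27 by 0.55 ± 0.08, and Rps6 was lower by -0.63 ± 0.10. These values share the saccule arrays with the cochlear comparison. In the saccule 9 of 16 mesenchyme markers were higher and 3 lower (3333 to 5869 against 2203 to 4222), 5 of 11 red cell markers higher and 1 lower (2853 to 12329 against 1770 to 5861) and 9 of 15 epithelium markers lower and 3 higher (6736 to 12053 against 8444 to 15476); their part was not tested. Cochlea and utricle were closest: 1 member was higher in the cochlea and 3 lower (14.9% and 14.4% of all genes). They were Rpl12 (0.51 ± 0.06), Rpl39 (-0.26 ± 0.08), Rpl7 (-0.25 ± 0.06) and Rpl38 (-0.21 ± 0.08, limma adjusted p = 0.047). Replicate numbers paired these 2 organs, and with the pair as a block 3 members were higher and 5 lower. The split went to 4 higher and 3 lower as deposited, where 856 genes were higher and 2011 lower. It went to 9 and 2 with the trimmed mean, where 1474 and 1314 genes were. Without E14 it was 1 and 10, and instead of 4 members 20 were called without the first E14 array of the utricle and 7 without the second.

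At E10.5 to E12 the cochlear primordium had 8 members higher and 1 lower than the vestibular primordium (10.3% and 13.9% of all genes), all of the large subunit. Rpl37 was higher by 0.43 ± 0.12, Rpl39 by 0.34 ± 0.09 and Rpl27 by 0.33 ± 0.10, and Rpl22 was lower by -0.23 ± 0.08. No direction can be given for the group as a whole. As deposited, none were higher and 29 lower, where 300 of 9352 genes were higher and 5299 lower. The median of all genes then lay at -0.28, and the cochlear arrays had the low maxima noted above. With the trimmed mean 3 members were higher and 8 lower, where 1179 and 1288 genes were. Only Rpl22 was called, and lower, under all 3 scalings, and its other probe set was called the opposite way, at 0.28.

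Trends over E12.5 to E15 differed between organs for few members. Between cochlea and saccule the difference was called for 3 members, all more positive in the cochlea (4.68% of all genes were more positive and 6.57% more negative), 1 of them by at least 1 log2 (1.94%). Rps20 read 2104 and 2290 at E12.5 and 2624 and 4122 at E15 in the cochlea, and 3160 and 4154, then 2044 and 2120 in the saccule, so that the order of the organs turned (1.16 ± 0.23, limma adjusted p = 5.5e-04). Rpl12 read 1833 and 1658 at E12.5, 2840 and 2881 at E14 and 1797 and 1722 at E15 in the cochlea. In the saccule it went from 1704 and 1207 at E12.5 to 794 and 813 at E15 (difference of the trends 0.81 ± 0.18, limma adjusted p = 0.0023). Rpsa went from 3325 and 2915 to 3744 and 3856 in the cochlea and from 4167 and 3967 to 2495 and 2855 in the saccule (0.79 ± 0.16, limma adjusted p = 7.0e-04). Between cochlea and utricle 1 member, Rpl8, was called, more negative in the cochlea by -0.65 ± 0.16 (limma adjusted p = 0.0081; 3.6% of all genes were more positive and 4.49% more negative). It read 4744 and 4423 at E12.5 and 3496 and 2996 at E15 in the cochlea, and 3486 and 3931, then 4648 and 4423 in the utricle. With the replicate number as a random block 6 members were called, 2 more positive and 4 more negative in the cochlea, and leaving out 1 array gave 0 to 9: 0 without the second cochlear array of E15 and 5 without the first, 9 and 5 without the first and second utricle arrays of E14, 7 without the second utricle array of E12.5, and 2 without the second cochlear or either utricle array of E13.

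Of the paralog pairs, Rpl39 and Rpl39l were called in opposite directions in 6 comparisons: inner ear against surroundings at E9.5 to E10.5 (0.52 and -0.44) and at E11 to E15 (1.10 and -0.89), surrounding tissue over time (-1.27 and 0.67), vesicle against placode (-0.74 and 0.52), cochlea against saccule (-0.72 and 0.34) and saccule against utricle (0.46 and -0.28). Some of these share arrays. At E9.5 to E10.5 and for vesicle against placode, Rpl39l was not called under all 3 scalings. Rpl39 read 1288 and 1438 in late surrounding tissue and 1198 to 4641 (median 3002) in the late inner ear, and Rpl39l 385 and 475 and 130 to 334. Rps4x was higher in the late inner ear by 0.49 ± 0.09, and Rps4l differed by 0.08 ± 0.27 and was not called. Rps27 differed by 0.02 ± 0.12 and was not called where Rps27l was lower by -0.58 ± 0.22. Differences between the paralogs of a pair were not tested.

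Many members varied together and others did not. Across the 32 group means, 25 members correlated above 0.5 with the median of the other members and 20 above 0.8, Rpl11 (Pearson r = 0.94), Rps24 (0.93) and Rps7 (0.93) most. Below 0 lay 7 members: Rpl39l (-0.53), Rpl12 (-0.50), Rpl22 (-0.28), Rps6 (-0.24), Rps14 (-0.18), Rpl13a (-0.17) and Rps3 (-0.10). These are descriptions; the groups share arrays' scaling, and bright probe sets have a compressed range. Without the 3 groups of E14, 24 members were above 0.5 and 11 below 0, now with Rpsa, Rps10, Rps27l and Rpl19. Over the 946 pairs of members the median correlation was 0.37, and 26.6% of pairs lay below 0. Over the 2701 pairs of 74 mitochondrial ribosomal protein genes the median was 0.32, and 23.4% lay below 0. Rpl22 and Rpl13a have other probe sets that were called the opposite way in some comparisons, so their correlations hold for the probe sets used.

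Other genes of the translation machinery were read from lists. Of 21 translation factors and related genes with TOP messages, 14 were higher and 4 lower in the inner ear at E11 to E15, with a median of 0.39; Btf3, a subunit of the nascent chain complex, was higher by 1.68, the ADP/ATP carrier Slc25a5 by 1.09 and the nucleolar chaperone Npm1 by 0.93, and the intermediate filament Vim was lower by -1.22. In surrounding tissue over time 14 of them fell and 2 rose. Of 43 ribosome assembly factors, 14 were higher and 6 lower in the late inner ear (median 0.09), 32 fell and 2 rose in surrounding tissue (median -1.17), and 29 fell and 4 rose along the cochlea from E10.5 to E15 (median -0.55). In surrounding tissue the change of the RNA helicase Ddx21 was -2.93, and those of the small-subunit assembly factors Ltv1 and Pno1 were -2.68 and -2.62. Between cochlea and saccule 21 assembly factors were higher in the cochlea and 7 lower, where 9 members were higher and 26 lower.

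Of 13 RNA polymerase I genes, which serve ribosomal RNA synthesis, 8 fell and 1 rose in surrounding tissue. Of 21 growth regulators 6 were higher and 4 lower in the late inner ear, among them Mycl, higher by 1.65, and the cell cycle inhibitor Cdkn1a, higher by 1.83; in surrounding tissue Mycn, a Myc family activator of ribosome genes, fell by 2.07 and 2 of the 21 rose and 4 fell. Of 74 mitochondrial ribosomal protein genes 32 were higher and 16 lower in the late inner ear (median 0.25), 5 rose and 38 fell in surrounding tissue, 6 rose and 22 fell from placode to vesicle, and 13 rose and 36 fell along the cochlea. No test of a list as a whole was run; the counts stand beside the shares of all genes given above.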

How the data were processed

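The deposited tables give a linear intensity per probe set. The submitters' processing notes name MAS5 as the tool the authors used; no source used here gives its version or scaling target. Each array has a floor of exactly 10, at which 5.43 to 12 percent of values lie. Trimmed means (2 percent) ran from 225 to 355, a 1.58-fold range, so arrays were quantile normalized; values are log2(signal + 16). Probe sets with at least 2 arrays at or above the array median and 1 gene symbol were kept, and the brightest stands for its gene; 20 members had several, and 14 are represented by sets ending in _s_at or _x_at, which can read related sequences, and ribosomal protein pseudogenes are many. Gene names come from the platform annotation.

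limma 3.58.1 (R 4.3.3) fitted 1 coefficient for each of 32 groups to all 64 arrays (32 residual degrees of freedom, variance trend). P-values are two-sided, adjusted by Benjamini-Hochberg over 9352 genes in each of 17 comparisons, with a threshold of 0.05. Inner ear stages were the mean of their tissues and stages weighed equally; trends are slopes times days spanned. P-values measure the spread between pools, and 2 arrays per group limit the precision. The code was tested on simulated data.

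The members and lists were chosen with earlier results of these data known. Named members were up to 4 called in each direction per comparison with the largest change, plus a panel of well-studied members; others named beside these were chosen after their values were seen, as were the reading of E14, its other scalings and the correlations without E14. From other lists up to 3 called genes were named, with further examples chosen later. Replicate numbers were checked as pairs: deviations of same-numbered arrays correlated at 0.20 to 0.51 over the 6 stages shared by cochlea and utricle, so those numbers pair arrays; the other organ pairs had correlations below 0.1 at some stage. Alternatives covered scaling, pseudocount, filter, probe set choice, array weights, samples in the fit, the replicate block, E11 and E14 arrays and each array left out.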

Additional observations from a re-analysis of the deposited data

Results flagged for a closer look

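The trends of 4 members over E12.5 to E15 differed between organs by a test of the difference itself. The numbers called were near or below the shares of all genes. More positive in the cochlea than in the saccule were 6.82% of members and 4.68% of all genes. More negative in the cochlea than in the utricle were 2.27% of members and 4.49% of all genes. Rps20, Rpl12 and Rpsa were more positive in the cochlea than in the saccule, by 1.16, 0.81 and 0.79 on the log2 scale. Under 11 other settings they were called each time, at 1.00 to 1.17, 0.61 to 0.82 and 0.63 to 0.79, and with any of 24 arrays left out they ran from 0.93 to 1.40, 0.63 to 0.98 and 0.71 to 0.87. Rpl8 was more negative in the cochlea than in the utricle by -0.65. It was called under 11 other settings at -0.74 to -0.63, and in 23 of 24 fits with an array left out; without the second cochlear array of E15 it stood at -0.57 (limma adjusted p = 0.055).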

How the results depend on the processing

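Counts below are members called, given without the share of all genes called under the same setting. With values as deposited they were 3 for the vestibular trend, 3 for the cochlear trend of E12.5 to E15, 29 for cochlea against vestibular and 7 for cochlea against utricle; there Rpl39 (-0.079), Rpl27 (-0.15), Rps19 (-0.40), Rpl11 (-0.12), Rpl38 (-0.38) and Rps4x (-0.31) reversed for cochlea against vestibular, and Rpl38 (-0.0059) and Rps4x (-0.085) for saccule against utricle. With the trimmed mean they were 12 at E9, 3 for the vestibular trend, 11 for cochlea against utricle and 2 for the cochlea and utricle trend difference. With probe sets ending in _at or _a_at the utricle trend had 4, and Rpl13a reversed to -0.32 in surrounding tissue, -0.093 and -0.099 in the early and late cochlear trends and -0.23 in the vestibular trend. With every probe set alone there were 14 at E9, 5 and 18 for the utricle and saccule trends, 7 for cochlea against utricle and 2 for its trend difference. With array weights there were 18 at E9, 17 for the vestibular trend, 20 for cochlea against vestibular and 4 for the utricle trend difference. With only the groups compared there were 18 at E9, 9 at E9.5 to E10.5, 4 from placode to vesicle, 18 for the vestibular trend, 12 and 1 for the late cochlear and utricle trends and 22 for cochlea against vestibular. With the replicate block as random there were 18 for cochlea against vestibular, 12 for cochlea against utricle, and 6 and 5 for the trend differences with utricle and saccule; as a fixed block, 20 and 8 for the first 2, and no other count moved by over 1.5 times. Between cochlea and saccule, deviations of same-numbered arrays correlated at 0.16 to 0.57 from E12.5 to E14.5 and at -0.50 at E15. Between saccule and utricle they correlated at 0.13 to 0.50 and then at -0.34. Between cochlea and vestibular primordium the correlations were -0.01 to 0.19. Whether the numbers pair arrays of these organs is not settled. Without E11 the vestibular trend had 3. Without E14 the utricle trend had 15, cochlea against utricle 11 and its trend difference 8. At 1 log2 or more there were 0 at E9, 1 at E9.5 to E10.5, 11 at E11 to E15, 13 in surrounding tissue, 3 from placode to vesicle, 3, 2 and 0 for the cochlear trends (E10.5 to E15, to E12, E12.5 to E15), 1, 0 and 0 for the vestibular, utricle and saccule trends, 0 for all 4 tissue comparisons, and 0 and 1 for the trend differences. The causes of these shifts were not tested.

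Leaving out each array in turn gave 4 to 5 at E9, 4 to 24 at E9.5 to E10.5, 25 to 32 at E11 to E15, 21 to 25 in surrounding tissue, 3 to 19 from placode to vesicle, 20 to 27 for the whole cochlear trend, 3 to 7 for the early one (3 without the second E10.5 array, 4 without the first E12 array), 1 to 4 for the vestibular (1 without the first E12 array, 2 without either E10.5 array, 3 without the first E11 or second E12 array), 2 to 6 for the late cochlear (2 without the first E12.5 array, 3 without the first E13 or second E15 array), 1 to 8 for the utricle (8 without the first E14 array, 6 without the second E12.5 array, 1 without the first E12.5, E13 or E15 array) and 6 to 10 for the saccule. It gave 6 to 10 for cochlea against vestibular, 3 to 20 for cochlea against utricle, 35 to 36 for cochlea against saccule and 27 to 33 for saccule against utricle. The trend difference with the utricle ranged from 0 to 9 (0 without the second cochlear E15 array, 5 without the first; 9 and 5 without the first and second utricle E14 arrays; 7 without the second utricle E12.5 array; 2 without the second cochlear E13 or either utricle E13 array), and that with the saccule from 3 to 5 (5 without the first saccule E12.5 array). The probe sets of 13 members lie near the top of the signal scale.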
